A study of Homo sapiens with 105 samples.

Results

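The integrins and the adhesion protein laminin-332 hold the basal cells of a stratified epithelium to the matrix below them, and 9 of their genes, ITGA2, ITGA5, ITGA6, ITGAV, ITGB1, ITGB4, ITGB6, LAMA3 and LAMB3, were followed in vaginal epithelial cells. The members were chosen by name, with earlier results of these data known, so the shares of called members given below are descriptions. Every probeset that the platform annotation pairs with one of these genes was taken, which gave 23 of the 54613 probesets tested and 8 of the 9 genes, out of 19775 named genes with a probeset of their own. The annotation used here lists no probeset for LAMA3, so LAMA3 was not analysed here. All 4 probesets of ITGB6 are annotated with both ITGB6 and the long noncoding RNA gene LINC02478, so their signal cannot be assigned to 1 of the 2 and is given as ITGB6/LINC02478.

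The cells were Vk2/E6E7, a single line of human vaginal epithelium immortalized with papillomavirus genes, so all groups share 1 genetic background and those transgenes. RNA was taken after 6 h and measured on Affymetrix U133 Plus 2.0 arrays. The pro-inflammatory compounds (PICs) were the cytokine TNF-α at 40 ng/ml (n = 5), the TLR2 lipopeptides Pam3CSK4 at 10 μg/ml (n = 6) and MALP2 at 200 ng/ml (n = 6), the TLR7 ligand imiquimod (IMQ, n = 6) and the nonionic surfactant nonoxynol-9 (N-9) at 12.5 μg/ml (n = 9). The dose of imiquimod is 30 mg/ml in the sample labels, while the methods of the study give the same figure in μg/ml. The non-inflammatory compounds (NICs) were the gels hydroxyethyl cellulose (HEC, n = 9) and carboxymethyl cellulose (CMC, n = 9), both at 1 mg/ml, and the controls were cells in growth medium alone (GM, n = 53). Of 105 arrays 103 were used. GM replicate 52 correlated with every other array at r = 0.0484 or less, while all other pairs reached at least 0.835, and TNF-α replicate 6 equals the mean of TNF-α replicates 1 to 3 within 7.67e-09. The labels number the arrays as biological replicates without saying which cultures were separate, and the p-values therefore cover only the variation among these arrays, part of which may be technical. The number of arrays limits the precision.

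Integrins are pairs of an α and a β subunit that span the membrane, bind matrix proteins outside the cell and connect to the cytoskeleton inside it. In stratified epithelium α2β1 is known as a receptor of collagen and α5β1 as the classical receptor of fibronectin. The αv subunit pairs with several β subunits, among them β6, whose expression is restricted to epithelium and which activates latent TGF-β. The α6β4 integrin forms the core of the hemidesmosome and binds laminin-332, whose chains include those encoded by LAMA3 and LAMB3. ITGB1 is shared by most of the pairs, so that the α subunits compete for it.

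Promoters are shown for the 5 members whose brightest probeset differed from GM with at least 1 treatment (ITGA2, ITGA5, ITGAV, ITGB6 and LAMB3). Each run spans 250 bases before to 50 bases after a transcription start of RefSeq on GRCh38.p14, is written 5′ to 3′ on the strand of the gene, and has capitals where it matches the AP-1 motif TGANTCA or the κB consensus on either strand.
ITGA2, chr5:52989102-52989401, plus strand: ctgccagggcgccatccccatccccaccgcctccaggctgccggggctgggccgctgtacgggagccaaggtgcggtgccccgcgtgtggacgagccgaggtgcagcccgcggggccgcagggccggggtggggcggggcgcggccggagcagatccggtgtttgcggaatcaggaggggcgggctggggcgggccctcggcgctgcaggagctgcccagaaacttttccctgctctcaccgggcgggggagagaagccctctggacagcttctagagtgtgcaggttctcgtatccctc
ITGA5, chr12:54419217-54419516, minus strand: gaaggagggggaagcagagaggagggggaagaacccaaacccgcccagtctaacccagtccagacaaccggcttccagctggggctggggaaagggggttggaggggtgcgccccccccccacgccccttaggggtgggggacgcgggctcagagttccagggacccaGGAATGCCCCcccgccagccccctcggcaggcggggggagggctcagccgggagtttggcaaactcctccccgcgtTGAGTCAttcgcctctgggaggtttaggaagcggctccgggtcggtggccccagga
LAMB3, first start, chr1:209652376-209652675, minus strand: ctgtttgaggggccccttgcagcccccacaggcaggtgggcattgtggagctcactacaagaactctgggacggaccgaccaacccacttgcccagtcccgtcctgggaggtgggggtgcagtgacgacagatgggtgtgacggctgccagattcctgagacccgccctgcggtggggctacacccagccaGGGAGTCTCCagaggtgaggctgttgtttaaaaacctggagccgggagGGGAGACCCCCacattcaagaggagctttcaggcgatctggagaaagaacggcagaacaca
LAMB3, last start, chr1:209651325-209651624, minus strand: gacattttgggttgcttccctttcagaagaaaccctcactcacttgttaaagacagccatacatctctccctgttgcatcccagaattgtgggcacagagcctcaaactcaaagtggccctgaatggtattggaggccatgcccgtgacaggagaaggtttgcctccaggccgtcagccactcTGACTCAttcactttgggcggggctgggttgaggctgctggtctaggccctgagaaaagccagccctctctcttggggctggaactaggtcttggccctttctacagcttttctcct
ITGAV, chr2:186589806-186590105, plus strand: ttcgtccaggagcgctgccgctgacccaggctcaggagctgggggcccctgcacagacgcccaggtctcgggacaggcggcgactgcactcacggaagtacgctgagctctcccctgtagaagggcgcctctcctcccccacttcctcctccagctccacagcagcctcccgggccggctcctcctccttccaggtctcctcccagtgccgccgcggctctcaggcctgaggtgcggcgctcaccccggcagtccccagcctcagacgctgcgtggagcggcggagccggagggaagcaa
ITGB6, chr2:160200223-160200522, minus strand: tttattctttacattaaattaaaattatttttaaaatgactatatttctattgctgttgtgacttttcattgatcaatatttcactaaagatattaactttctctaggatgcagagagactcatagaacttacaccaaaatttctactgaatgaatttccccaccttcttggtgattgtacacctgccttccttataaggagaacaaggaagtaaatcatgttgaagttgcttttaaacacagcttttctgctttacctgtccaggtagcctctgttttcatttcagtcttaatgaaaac

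The ITGA5 run holds TGAGTCA, which begins 6 bases before the start, and 1 match to the κB consensus that begins 82 bases before it. The first LAMB3 run has 3 matches to the κB consensus, which begin 59, 11 and 10 bases before the start, the last 2 of which overlap, and that of the last LAMB3 start has TGACTCA from 67 bases before the start. The run of the second LAMB3 start, which is not printed, overlaps the first and holds the same 3 κB matches, 155, 107 and 106 bases before that start. A second ITGAV start, not printed either, has no match. No match to either motif was found in the runs of ITGA2, ITGAV and ITGB6. Among the runs not printed, ITGB1 has a κB match that begins 10 bases before 1 of its starts, and ITGA6 has no match. The brightest probesets of ITGB1 and ITGA6 were called with no treatment. Over 35116 promoters of this length, 7.71% hold the AP-1 motif and 11.3% the κB consensus. A match is a description of the letters and shows no binding in these cells. RefSeq promoters were examined for 7 of the members, and not for ITGB4 and LAMA3.

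Across the treatments, ITGA2 rose with MALP2, imiquimod and N-9, ITGA5 with imiquimod, and LAMB3 with imiquimod and N-9. ITGAV rose with TNF-α and Pam3CSK4 and fell with N-9, and ITGB6/LINC02478 fell with N-9. The brightest probesets of ITGA6, ITGB1 and ITGB4 differed from GM with none of the 7 treatments in this fit. These calls are by limma at a Benjamini-Hochberg adjusted p under 0.05 over all 54613 probesets, on quantile normalized log2 signals. Against GM replicates 1 to 9 alone the calls of ITGA5 and LAMB3, and those of ITGA2 and ITGAV with N-9, were lost. LAMB3 also changed sign there, as given below. In bulk RNA a gene that is lower in each cell and one that is kept by fewer cells cannot be told apart.

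**Figure D1:**
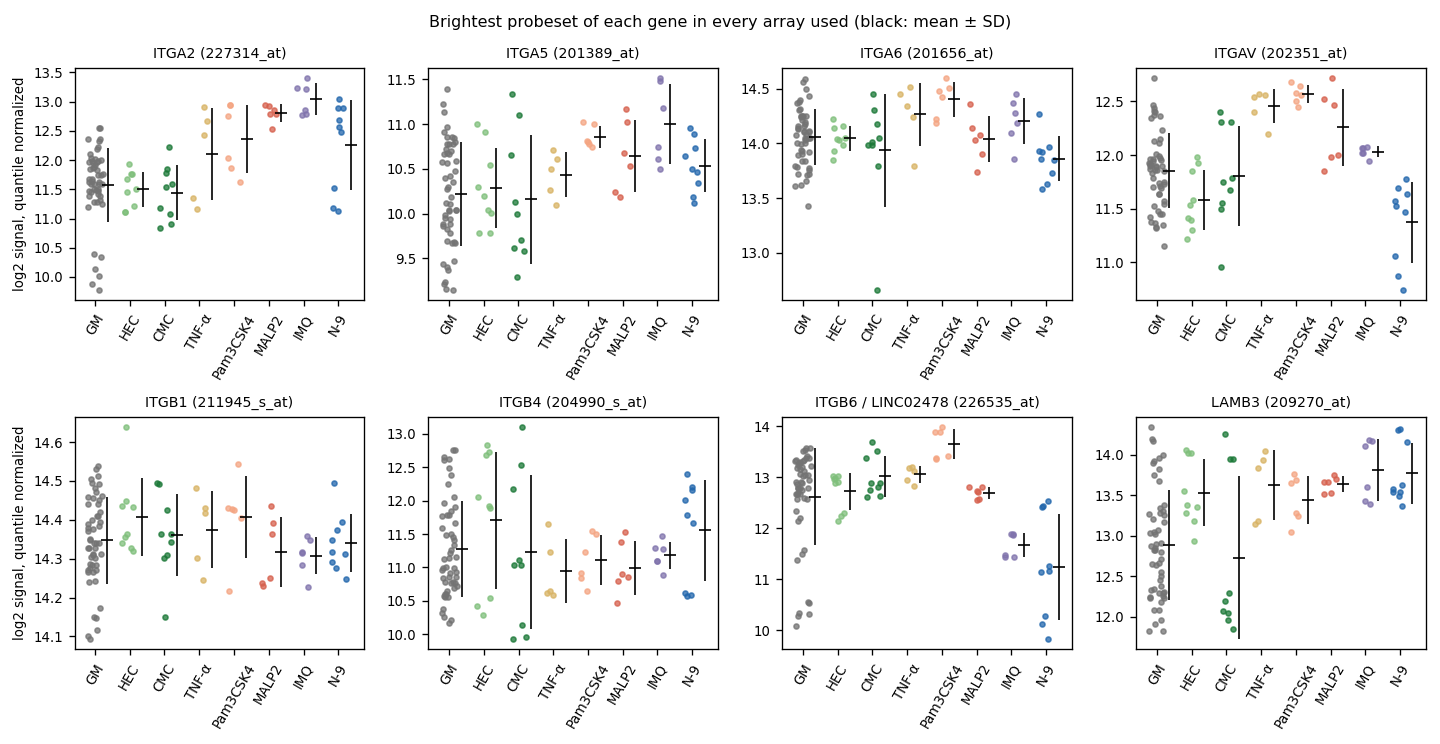
Quantile normalized log2 signal of the brightest probeset of each of the 8 measured genes in the 103 arrays, by group (IMQ is imiquimod), with 1 point per array and the mean ± SD in black; each panel has its own axis. All 6 imiquimod arrays lie above the highest of the 53 GM arrays for ITGA2, and the GM arrays of ITGB6/LINC02478 spread from 10.08 to 13.57.

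Counted over the 23 probesets, 1 was called with TNF-α, and it was higher (4.35%, against 0.72% of all probesets tested, 0.527% higher). With Pam3CSK4 2 were called, both higher (8.7%, against 2.17%, 1.31% higher). MALP2 had 2 as well, both higher (8.7%, against 6.95%, 3.28% higher, so the share of called probesets lay near that of the whole array). For imiquimod 4 were higher and 3 lower (30.4% of the 23, against 10.9%, 4.68% higher and 6.19% lower). For N-9 4 were higher and 5 lower (39.1%, against 17.4%, 7.34% higher and 10.1% lower). No member was called by limma with HEC (0.793% of all probesets, and 4 members at an unadjusted p under 0.05) or with CMC (0.00183%, and 2 members unadjusted). Over the 23 probesets the median log2 difference from GM was 0.22 in the TNF-α arrays, 0.35 in those of Pam3CSK4, -0.02 in those of MALP2, -0.13 under imiquimod and 0.14 under N-9. HEC, with no member called, had a median of 0.16, near that of N-9, and CMC one of 0.01. The medians over all probesets lay between -0.02 and 0.01. Probesets of 1 gene share its transcripts and are not independent.

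**Figure D2:**
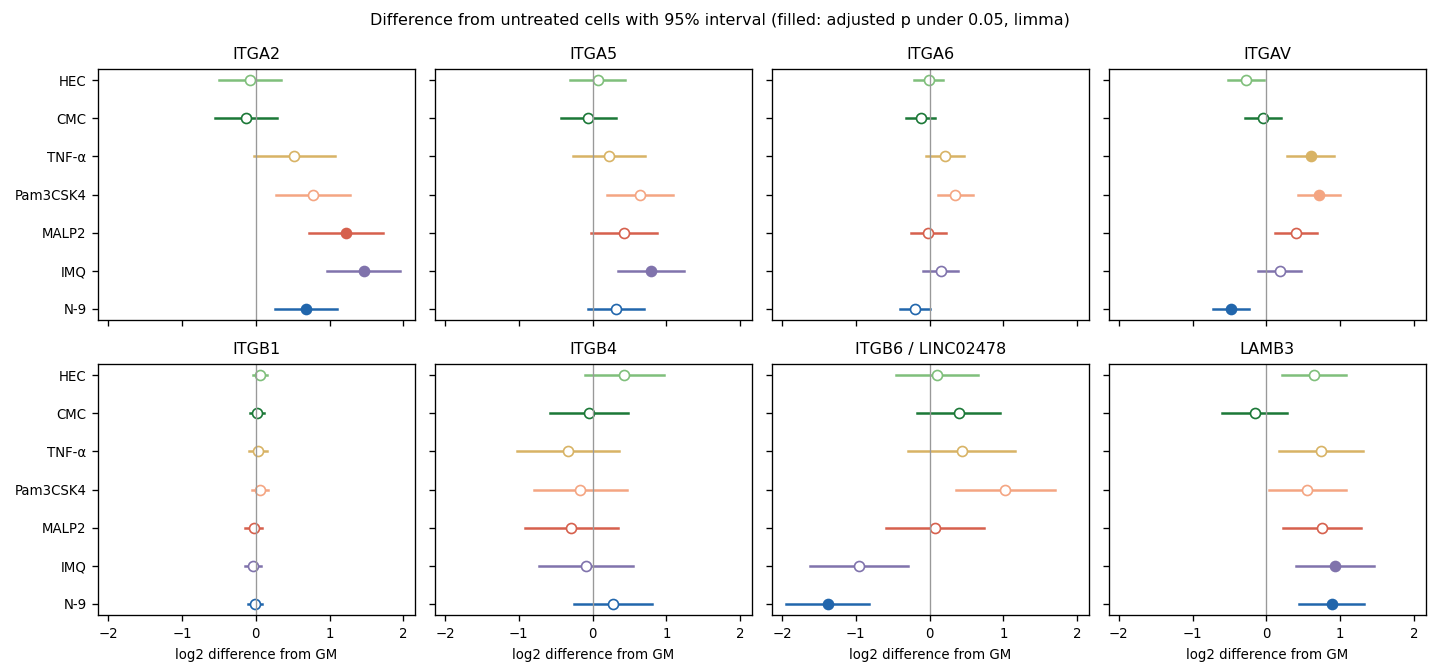
Log2 difference of each treatment from GM for the brightest probeset of each gene, with its 95% interval; filled points have an adjusted p under 0.05 by limma. ITGA2 is filled for MALP2, imiquimod and N-9, ITGAV for TNF-α and Pam3CSK4 to the right and N-9 to the left, and the points of ITGB1 all lie within 0.07 of 0.

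ITGA2, which encodes the α2 chain of the collagen receptor, was the member whose brightest probeset had all arrays of a treatment above those of GM. In GM the log2 level of its brightest probeset (227314_at) was 11.58 ± 0.63 (SD, n = 53), from 9.78 over a median of 11.65 to 12.55. With imiquimod the arrays ran from 12.76 over a median of 13.03 to 13.40, and all 6 lay above the highest GM array. ITGA2 was 2.75-fold higher with imiquimod than in GM (log2 difference 1.46, SE 0.25, adjusted p = 6.1e-06).

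With MALP2 the ITGA2 arrays ran from 12.54 over 12.83 to 12.94, 5 of 6 above the highest GM array. The gene was 2.34-fold higher than in GM (log2 difference 1.23, SE 0.25, adjusted p = 0.000292). With N-9 the arrays ran from 11.13 over 12.57 to 13.05, 5 of 9 lay above the highest GM array and 3 below the GM median. The difference with N-9 was 0.68 on the log2 scale (SE 0.21, 1.61-fold, adjusted p = 0.0136). The arrays that were low were N-9 replicates 4, 5 and 6, at 11.53, 11.13 and 11.17. The mean over all 9 thus joins 6 arrays at 12.48 or above and 3 at the level of GM.

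With the other PICs ITGA2 did not pass the test. Of the Pam3CSK4 arrays, from 11.62 over 12.39 to 12.95, 3 of 6 lay above the highest GM array, and the log2 difference was 0.78 (SE 0.25, adjusted p = 0.0845). The TNF-α arrays were at 12.68, 12.90, 12.43, 11.35 and 11.16 in replicates 1 to 5, so that 3 were high and 2 were below the GM median (log2 difference 0.52, SE 0.27, adjusted p = 0.63). With HEC and CMC the differences were -0.08 and -0.14 (SE 0.21 for each). Ordered by their means, the ITGA2 levels were highest with imiquimod (13.04 ± 0.27, SD, n = 6), followed by MALP2, Pam3CSK4, N-9, TNF-α, GM, HEC and CMC (11.44 ± 0.47, SD, n = 9), and no group mean differed from its neighbour in this order by more than the larger SD of the pair.

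The dimmer ITGA2 probeset (205032_at) was called with the same 3 treatments, by 1.10 under imiquimod (SE 0.26, adjusted p = 0.00121), 0.82 under MALP2 (SE 0.26, adjusted p = 0.0326) and 0.82 under N-9 (SE 0.22, adjusted p = 0.00308) on the log2 scale. This probeset was higher in GM replicates 1 to 9 (9.86 ± 0.17, SD, n = 9) than in the other GM arrays (9.11 ± 0.56, SD, n = 44), and against those 9 arrays alone its 3 calls were lost (0.48, 0.21 and 0.20). For the brightest probeset the call with N-9 was lost there too (0.57, adjusted p = 0.105), while those with MALP2 and imiquimod held in each alternative computed.

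ITGA5, the α chain of the fibronectin receptor, has 1 probeset (201389_at), which was higher with imiquimod. In GM its log2 level ran from 9.15 over a median of 10.18 to 11.39, and with imiquimod from 10.50 over 10.97 to 11.51. All 6 imiquimod arrays lay above the GM median and 2 above the highest GM array. ITGA5 was 1.73-fold higher (log2 difference 0.79, SE 0.22, adjusted p = 0.0106), a call that is lost against GM replicates 1 to 9 alone (0.19, adjusted p = 0.598).

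All 6 Pam3CSK4 arrays of ITGA5, from 10.74 over 10.80 to 11.02, and all 6 MALP2 arrays, from 10.19 over 10.61 to 11.17, also lay above the GM median without passing the test (log2 differences 0.64, adjusted p = 0.13, and 0.42, adjusted p = 0.323). The differences with N-9, TNF-α, HEC and CMC were 0.32, 0.22, 0.07 and -0.06. GM replicates 1 to 9 were high (10.82 ± 0.16, SD, n = 9, against 10.10 ± 0.56, SD, n = 44, in the other GM arrays). Against these replicates alone ITGA5 was at 0.04 with Pam3CSK4, -0.18 with MALP2, -0.28 with N-9 and -0.38 with TNF-α. With HEC and CMC it was at -0.53 and -0.66, and none of these differences passed the test. The order of the group means ran from imiquimod (11.01 ± 0.45, SD, n = 6) over Pam3CSK4, MALP2, N-9, TNF-α, HEC and GM to CMC (10.16 ± 0.72, SD, n = 9), and neighbours again lay within the larger SD of the pair.

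ITGB1, the partner chain of α2, α5, αv and α6 alike, stayed within a narrow range in its brightest probeset (211945_s_at). In GM it was at 14.35 ± 0.11 (SD, n = 53) on the log2 scale, and the 7 treatment means lay between 14.31 with imiquimod and 14.41 with HEC and Pam3CSK4. The 95% intervals of the differences from GM ran from -0.15 to 0.17 over all treatments. Without quantile normalization the difference with N-9 was 0.24 (adjusted p = 0.0298).

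Of the 6 other ITGB1 probesets, 2 were called with 1 treatment each. The probeset 1553530_a_at was lower with imiquimod (from 11.70 over 12.90 to 13.12, against 12.09 over 13.34 to 14.07 in GM), by 0.64 on the log2 scale (SE 0.18, adjusted p = 0.0098). The probeset 216190_x_at was lower with N-9 (log2 difference -1.08, SE 0.32, adjusted p = 0.0082), at levels of 5.47 ± 0.86 (SD, n = 53) in GM and 4.38 ± 1.02 (SD, n = 9) with N-9, below the median probeset of the array at 6.44. The second brightest, 1553678_a_at, was called with no treatment. All its 6 imiquimod and 9 N-9 arrays lay below its GM median (means 13.21 and 13.32, against a GM mean of 13.62). Its Pam3CSK4 mean was above that of GM (13.97). The probesets of ITGB1 thus disagree on a change with imiquimod and N-9.

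The imiquimod arrays also differed from GM in a sign of RNA quality. The log2 difference between the 3′ and the 5′ probeset of ACTB was 0.96 ± 0.52 (SD, n = 6) in the imiquimod arrays and 0.44 ± 0.24 (SD, n = 53) in GM, and between 0.33 and 0.55 on average in the other groups. With this difference as a covariate the ITGB1 probeset 1553530_a_at was -0.04 from GM (adjusted p = 0.922). The calls of ITGA2, ITGA5 and LAMB3 with imiquimod held with the covariate. The covariate was itself higher with imiquimod than in GM, so its part and that of the treatment cannot be told apart. The part of RNA quality in the disagreement was not tested.

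ITGAV, the αv chain of the receptors for vitronectin and latent TGF-β, moved in opposite directions among the PICs. In GM its single probeset (202351_at) was at 11.85 ± 0.35 (SD, n = 53) on the log2 scale, from 11.15 over 11.87 to 12.71. With Pam3CSK4 the arrays ran from 12.44 over 12.57 to 12.68, all above the GM median but none above the highest GM array. ITGAV was 1.64-fold higher with Pam3CSK4 (log2 difference 0.71, SE 0.15, adjusted p = 0.00109).

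With TNF-α the 5 ITGAV arrays read 12.40, 12.54, 12.20, 12.56 and 12.57, all above the GM median. The log2 difference was 0.60 (SE 0.16, 1.52-fold, adjusted p = 0.0418), a call that was lost on leaving out any 1 of the TNF-α replicates 1 to 5 (0.57 to 0.66, adjusted p between 0.0742 and 0.205). MALP2, another lipopeptide ligand of TLR2 but at another dose than Pam3CSK4, gave arrays from 11.85 over 12.23 to 12.72 and a difference of 0.40 (SE 0.15, adjusted p = 0.0815). This difference passed the test against GM replicates 1 to 9 alone (0.75, adjusted p = 0.00109), without quantile normalization (0.46, adjusted p = 0.0361) and among probesets above the median level (0.40, adjusted p = 0.0434).

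With N-9 the ITGAV arrays ran from 10.75 over 11.53 to 11.78, all 9 below the GM median and 3 below the lowest GM array. ITGAV was 1.40-fold lower with N-9 than in GM (log2 difference -0.48, SE 0.12, adjusted p = 0.00203). GM replicates 1 to 9 were themselves low (11.50 ± 0.26, SD, n = 9, against 11.93 ± 0.32, SD, n = 44, in the other GM arrays), and against them the difference was -0.13 (adjusted p = 0.66). The 6 imiquimod arrays lay close together, from 11.94 to 12.08 (log2 difference 0.18, adjusted p = 0.531, against 0.53 and adjusted p = 0.019 with GM replicates 1 to 9 alone), and the differences with HEC and CMC were -0.28 and -0.05.

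Compared directly, ITGAV was lower with N-9 than with MALP2 by 0.88 (SE 0.18, 1.84-fold, adjusted p = 0.000129) and lower than with imiquimod by 0.66 (SE 0.18, 1.58-fold, adjusted p = 0.0078) on the log2 scale. With the ACTB difference as a covariate the second call is lost (-0.59, adjusted p = 0.0548). The means ran from Pam3CSK4 (12.57 ± 0.09, SD, n = 6) over TNF-α, MALP2, imiquimod, GM, CMC and HEC to N-9 (11.37 ± 0.38, SD, n = 9), and no neighbours differed by more than the larger SD of the pair.

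ITGB6/LINC02478 had the largest SD in GM among the brightest probesets of the members and fell with N-9. In GM its brightest probeset (226535_at) was at 12.62 ± 0.95 (SD, n = 53) on the log2 scale, from 10.08 over 12.90 to 13.57. With N-9 the arrays ran from 9.83 over 11.16 to 12.53, all 9 below the GM median and 1 below the lowest GM array. The level was 2.60-fold lower than in GM (log2 difference -1.38, SE 0.28, adjusted p = 9.56e-05).

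A further 2 ITGB6/LINC02478 probesets were lower with N-9, by 1.14 (208083_s_at, SE 0.37, adjusted p = 0.0187) and by 1.19 (208084_at, SE 0.39, adjusted p = 0.023) on the log2 scale. The dimmest, 239517_at, was higher (0.54, SE 0.17, adjusted p = 0.0127), at 6.92 ± 0.46 (SD, n = 9) against 6.38 ± 0.51 (SD, n = 53) in GM, and so disagrees with the other 3. Compared directly, the brightest probeset was lower with N-9 than with MALP2 by 1.45 (SE 0.41, 2.74-fold, adjusted p = 0.00913), while the difference of -0.42 between N-9 and imiquimod did not pass the test (adjusted p = 0.583, 95% interval -1.24 to 0.40). The dimmest probeset, 239517_at, went the other way in both comparisons and was higher with N-9 than with MALP2 (0.83, SE 0.24, adjusted p = 0.0112) and than with imiquimod (0.73, SE 0.24, adjusted p = 0.0345).

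With imiquimod the brightest ITGB6/LINC02478 probeset ran from 11.44 over 11.67 to 11.89, all 6 arrays below the GM median, and missed the threshold (log2 difference -0.96, SE 0.34, adjusted p = 0.0507). Against GM replicates 1 to 9 alone (-0.91, adjusted p = 0.0269), with an offset of 16 (adjusted p = 0.0463) and among probesets above the median level (adjusted p = 0.0274) it passed. The probesets 208083_s_at and 208084_at were lower by 1.46 (SE 0.44, adjusted p = 0.0166) and 1.42 (SE 0.47, adjusted p = 0.0348). With the ACTB difference as a covariate these differences were -0.70 (adjusted p = 0.448) and -0.59 (adjusted p = 0.584).

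With Pam3CSK4 3 of 6 ITGB6/LINC02478 arrays lay above the highest GM array, in a range from 13.36 over 13.65 to 13.98. The brightest probeset did not pass the test (log2 difference 1.03, SE 0.34, adjusted p = 0.093, and 1.08 with adjusted p = 0.013 against GM replicates 1 to 9 alone), and 208083_s_at did, 2.87-fold higher (1.52, SE 0.44, adjusted p = 0.0402). Against GM replicates 1 to 9 alone the call of 208083_s_at was lost (1.02, adjusted p = 0.192). It was also lost with all 105 arrays (adjusted p = 0.0711) and with only the 2 groups compared (adjusted p = 0.0718). The TNF-α arrays, at 13.20, 13.13, 13.19, 12.83 and 12.94, and the MALP2 arrays, from 12.55 over 12.71 to 12.81, lay within the range of GM. The order of the means was Pam3CSK4 (13.65 ± 0.29, SD, n = 6), TNF-α, CMC, HEC, MALP2, GM, imiquimod and N-9 (11.24 ± 1.04, SD, n = 9), in which Pam3CSK4 differed from TNF-α, and GM from imiquimod, by more than the larger SD of the pair.

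**Figure D3:**
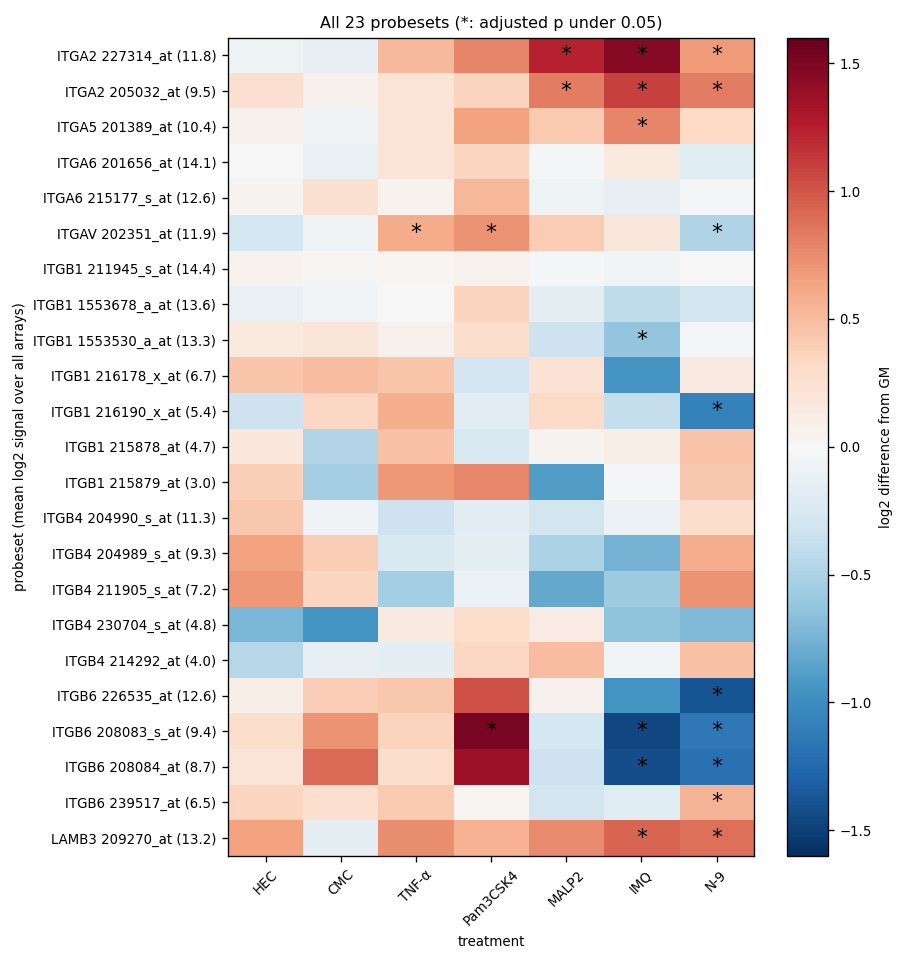
Log2 difference from GM of all 23 probesets with each treatment, in red where higher and in blue where lower, with the mean log2 signal over all arrays in brackets and a star for an adjusted p under 0.05 by limma; rows marked ITGB6 are annotated with ITGB6 and LINC02478. Stars in both ITGA2 rows stand under MALP2, imiquimod and N-9, and the ITGB6 row at 6.5 is opposite in sign to the other 3 with N-9.

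Neither chain of the laminin-332 receptor α6β4 was called in its brightest probeset when all GM arrays were the controls. The brightest ITGA6 probeset (201656_at) was at 14.06 ± 0.26 (SD, n = 53) in GM and between 13.86 ± 0.20 (SD, n = 9) with N-9 and 14.40 ± 0.16 (SD, n = 6) with Pam3CSK4. The largest difference of this probeset was 0.35 with Pam3CSK4 (SE 0.12, adjusted p = 0.121), where all 6 arrays lay above the GM median, and against GM replicates 1 to 9 alone it was 0.45 and passed (adjusted p = 0.0343). The second ITGA6 probeset, 215177_s_at, was not called with all GM arrays either.

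ITGB4, which anchors the intermediate filaments through plectin, was at 11.28 ± 0.72 (SD, n = 53) in GM in its brightest probeset (204990_s_at), from 10.17 over 11.13 to 12.76. The group means lay between 10.95 ± 0.48 (SD, n = 5) with TNF-α and 11.71 ± 1.03 (SD, n = 9) with HEC, and the 95% intervals of the differences ran from -1.02 to 0.96. The absence of a call thus leaves room for changes of about that size. GM replicates 1 to 9 were high (12.30 ± 0.43, SD, n = 9, against 11.07 ± 0.58, SD, n = 44), and against these alone ITGB4 was lower by 1.35 with TNF-α (adjusted p = 0.0296), 1.19 under Pam3CSK4 (adjusted p = 0.0305), 1.31 under MALP2 (adjusted p = 0.0128) and 1.11 under imiquimod (adjusted p = 0.0303) on the log2 scale. Against the same arrays the differences with N-9 and HEC, 0.28 and 0.43 over all GM arrays, became -0.74 and -0.59 without passing the test (adjusted p = 0.164 and 0.763). The difference with CMC, -0.05 over all GM arrays, became -1.07 and did not pass either (adjusted p = 0.0902). The brightest probeset thus lay below these GM replicates with every treatment, the gels included.

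Between treatments the dimmer ITGB4 probeset 211905_s_at was higher with N-9 than with MALP2 (log2 difference 1.54, SE 0.44, adjusted p = 0.00866) and than with imiquimod (1.29, SE 0.44, adjusted p = 0.0388). It ran from 6.93 over 7.66 to 9.15 with N-9, from 5.84 over 6.41 to 6.75 with MALP2 and from 5.69 over 6.79 to 7.25 with imiquimod, so that the N-9 and MALP2 arrays did not overlap. With the ACTB difference as a covariate the second difference was 0.26 (adjusted p = 0.794). The brightest ITGB4 probeset was called in neither comparison, with a log2 difference of 0.37 between N-9 and imiquimod (adjusted p = 0.616). In total 5 of 23 member probesets were called between N-9 and MALP2 (21.7%, against 13.1% of all probesets) and 3 between N-9 and imiquimod (13%, against 10.8%, a share near that of the array).

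LAMB3, which encodes the β3 chain of laminin-332, rose with imiquimod and N-9. In GM its probeset (209270_at) was at 12.89 ± 0.67 (SD, n = 53) on the log2 scale, from 11.82 over 12.83 to 14.34. With imiquimod the arrays ran from 13.39 over 13.85 to 14.19, and with N-9 from 13.37 over 13.58 to 14.32. All of them lay above the GM median and none above the highest GM array. LAMB3 was 1.90-fold higher with imiquimod (log2 difference 0.93, SE 0.26, adjusted p = 0.0104) and 1.84-fold higher with N-9 (0.88, SE 0.22, adjusted p = 0.00176).

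In every array of MALP2 (13.51 over 13.67 to 13.75), Pam3CSK4 (13.04 over 13.46 to 13.76) and HEC (12.94 over 13.37 to 14.07) LAMB3 was above the GM median as well. The same was true of the TNF-α arrays, at 13.83, 14.04, 13.93, 13.15 and 13.18. None of these 4 differences passed the test (0.75, 0.56, 0.64 and 0.74 on the log2 scale, adjusted p = 0.0694, 0.365, 0.136 and 0.351). With CMC the arrays ran from 11.85 over 12.20 to 14.26 and the difference was -0.16 (adjusted p = 0.906).

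The result of LAMB3 depended on the GM arrays it was compared with. GM replicates 1 to 9 had a level of 14.00 ± 0.20 (SD, n = 9), and the other GM arrays 12.66 ± 0.48 (SD, n = 44). Against replicates 1 to 9 alone, imiquimod and N-9 were at -0.18 (adjusted p = 0.679) and -0.23 (adjusted p = 0.618), and CMC was lower by 1.27 (adjusted p = 0.00426). TNF-α, MALP2, Pam3CSK4 and HEC were at -0.37, -0.36, -0.55 and -0.47 (adjusted p = 0.466, 0.384, 0.162 and 0.743). The direction thus turned with all 5 PICs and with HEC. The order of the means over all arrays was imiquimod (13.82 ± 0.38, SD, n = 6), N-9, MALP2, TNF-α, HEC, Pam3CSK4, GM and CMC (12.73 ± 1.00, SD, n = 9), with no neighbours further apart than the larger SD of the pair.

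The arrays of a group were not spread evenly. Arrays with 3 consecutive replicate numbers lay close to each other, and the distances between such sets were larger. Over the 18 GM sets the SD within sets was 0.10 for ITGB6/LINC02478, against 0.95 over all GM arrays, and the set means ran from 10.32 to 13.54. For ITGA2 the SD was 0.15 within sets and 0.63 over all, for ITGAV 0.10 and 0.35, and for LAMB3 0.19 and 0.67. What the sets are is not given in the labels.

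The treated arrays had the same structure. With N-9 the ITGB6/LINC02478 arrays read 10.13, 10.28 and 9.83 in replicates 1 to 3, 12.53, 12.42 and 12.43 in replicates 4 to 6 and 11.14, 11.16 and 11.26 in replicates 7 to 9. Counted by set means, both imiquimod sets and both MALP2 sets of ITGA2 lay above all 18 GM sets, as did 2 of 3 N-9 sets, whereas 1 of 3 N-9 sets of ITGB6/LINC02478 lay below all GM sets. With the sets as a random block (consensus correlation 0.438) the calls of the brightest probesets held except that of ITGAV with TNF-α (adjusted p = 0.125). That correlation was shared by all probesets, while ITGB6/LINC02478 had an SD of 0.10 within GM sets and 0.95 over all GM arrays. For such genes the block counts the arrays of a set as more separate than they are. A held call thus does not show that it is free of the sets. The block also ended the calls of 208083_s_at with Pam3CSK4 (adjusted p = 0.136), of 208084_at with imiquimod and N-9 (adjusted p = 0.109 and 0.0735), of 239517_at and 216190_x_at with N-9 (adjusted p = 0.242 and 0.214), of 205032_at with MALP2 (adjusted p = 0.114) and of 1553530_a_at with imiquimod (adjusted p = 0.0595). Between treatments it ended those of 211905_s_at with N-9 against imiquimod (adjusted p = 0.131), of 239517_at with N-9 against imiquimod and MALP2 (adjusted p = 0.4 and 0.253) and of 216190_x_at with N-9 against MALP2 (adjusted p = 0.373).

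**Figure D4:**
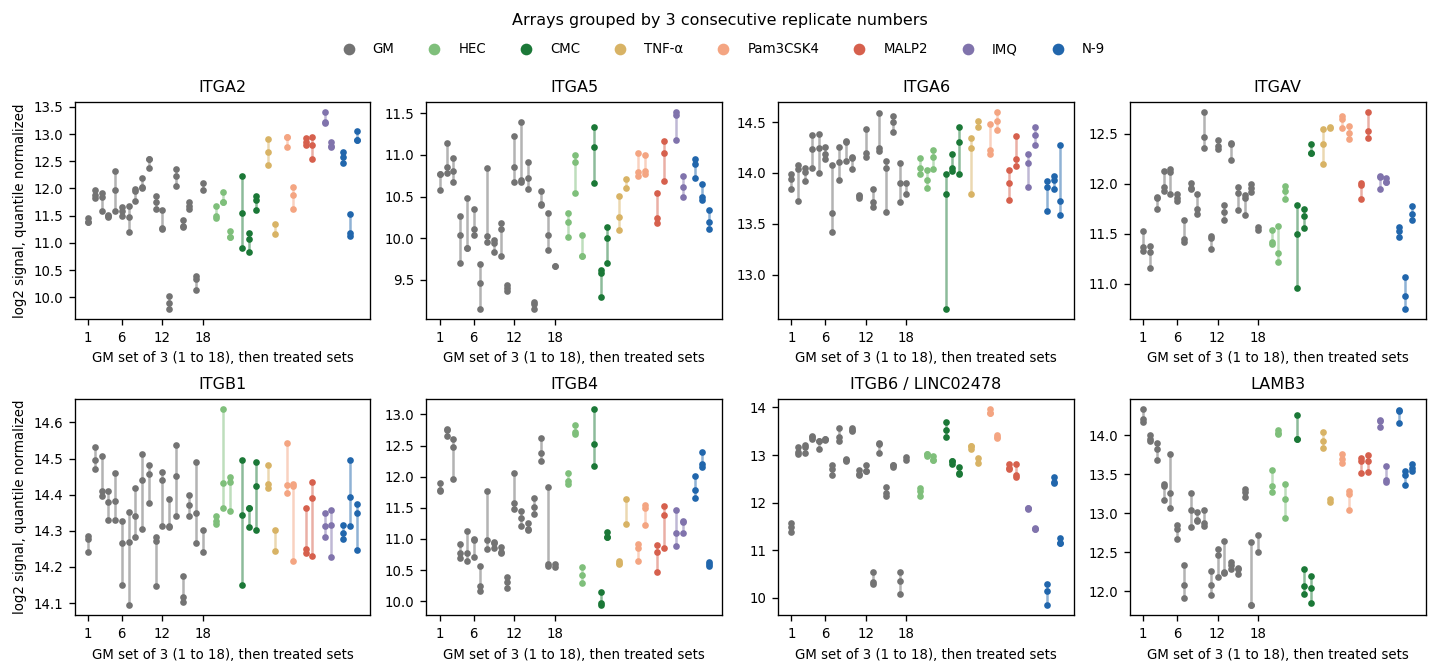
Log2 signal of the brightest probeset of each gene with the arrays joined in sets of 3 consecutive replicate numbers, the 18 GM sets first (grey) and then the sets of each treatment. Within most sets the points lie close together, and the GM set means of ITGB6/LINC02478 run from 10.32 to 13.54.

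The gels are cellulose ethers that differ in their side groups, hydroxyethyl in HEC and carboxymethyl in CMC, and they were given at 1 dose and time. This was the only pair of compounds with matched doses that was compared. No member probeset was called between them by limma (0% of all probesets were called, and 1 member had an unadjusted p under 0.05). For the brightest probesets the differences of HEC from CMC lay between -0.30 for ITGB6/LINC02478 (95% interval -1.03 to 0.44) and 0.80 for LAMB3 (95% interval 0.23 to 1.38, adjusted p = 0.555). These intervals leave room for differences, and the lack of a call does not show that the gels act alike.

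The cells carried epithelial markers throughout. KRT5, KRT14, SFN, CDH1 and EPCAM, the 5 of 7 epithelial markers with a probeset of their own, had log2 levels between 12.73 and 15.06 in GM, and none was called with a treatment. Of 15 markers of fibroblasts, endothelium, leukocytes and melanocytes, 9 lay below the median probeset of the array at 6.44, from CDH5 of endothelium (3.39) to PMEL of melanocytes (6.34). The other 6 lay above it, with COL1A1 of fibroblasts at 10.83 ± 0.88 (SD, n = 53), PECAM1 of endothelium at 8.19, THY1 at 7.57, ITGAM and CD14 of leukocytes at 7.16 and 7.04 and TYR of melanocytes at 6.63. Against GM no marker of fibroblasts or endothelium was called. Between treatments COL1A1 was lower with N-9 than with MALP2 (10.12 against 11.33, log2 difference -1.21, adjusted p = 0.0336), the comparison in which ITGAV and ITGB6/LINC02478 were also lower. CD14 was lower with imiquimod (5.45 against 7.04, adjusted p = 0.0252). The summed linear signal of the 8 markers of fibroblasts and endothelium lay between 1212 and 5553 in GM, 2786 and 4723 with Pam3CSK4, 2213 and 4423 with MALP2 and 1621 and 2066 with N-9, within the range of GM, and its part in the results above was not tested.

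Other genes of the integrin system were followed as lists by the brightest probeset of each gene. Over the brightest probesets of all 19775 named genes the share called was 19.9% for N-9, 13.9% for imiquimod, 9.62% for MALP2, 3.19% for Pam3CSK4, 0.996% for TNF-α, 0.834% for HEC and 0% for CMC. Of 20 other integrin subunits, all measured, 1 rose with MALP2 and 2 fell with N-9, and none was called with the other treatments. These shares, 5% with MALP2 and 10% with N-9, lay below those of all named genes. ITGB8, which also pairs with αv and activates TGF-β, was 0.97 higher with MALP2 (SE 0.28, adjusted p = 0.0158) and 0.62 lower with N-9 (SE 0.23, adjusted p = 0.0498) on the log2 scale, so that it moved in opposite directions. ITGA1, another collagen receptor chain, fell with N-9 from a dim 6.31 in GM to 4.95 (adjusted p = 5.71e-05).

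Of 8 measured laminin chains outside the members, 1 rose and 1 fell with MALP2, 1 rose with imiquimod and 2 fell with N-9. The shares called were 25%, 12.5% and 25% of the chains under MALP2, imiquimod and N-9, against 9.62%, 13.9% and 19.9% of all named genes. Those with imiquimod and N-9 lay near the share of all named genes, in a list of only 8. LAMA2 was 1.05 higher with imiquimod (SE 0.19, adjusted p = 2.25e-05) and 0.64 higher with MALP2 (SE 0.19, adjusted p = 0.023). LAMB1, the β chain of laminins in many tissues, was 1.05 lower with MALP2 (SE 0.17, adjusted p = 2.48e-06). With N-9 LAMB2 fell by 1.21 (SE 0.31, adjusted p = 0.00202) and LAMC1 by 0.42 (SE 0.12, adjusted p = 0.00619), all on the log2 scale.

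Among 12 measured genes of the hemidesmosome and the anchoring of the basement membrane (13 listed), 1 was called with each of 3 treatments (8.33%, below the share of all named genes for each of them). DST, whose epithelial product is the hemidesmosome plakin BP230, was 0.94 lower with MALP2 (SE 0.24, adjusted p = 0.00527). FRAS1, a protein of the basement membrane, was 1.46 higher with imiquimod (SE 0.21, adjusted p = 7.33e-08), and NID2, which links laminins to collagen IV, was lower with N-9 (4.87 against 6.25, both dim, adjusted p = 0.0115).

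Of 26 measured adaptors and focal adhesion genes (27 listed), 1 rose under Pam3CSK4, 2 under MALP2 and 1 under imiquimod, while 1 fell with imiquimod and 5 with N-9. The shares called, 3.85% with Pam3CSK4, 7.69% with MALP2 and with imiquimod and 19.2% with N-9, lay near or below those of all named genes. FERMT2, a kindlin that activates integrins through their β tails, was higher in the Pam3CSK4, MALP2 and imiquimod arrays, by 0.91, 0.92 and 1.09 (SE 0.24 for each, adjusted p = 0.0204, 0.00598 and 0.000487). FERMT1, the kindlin of epithelia, rose by 0.99 with MALP2 (SE 0.27, adjusted p = 0.0116). TNS3, a tensin that links integrins to actin, fell with imiquimod and N-9 by 0.56 and 0.90 (adjusted p = 0.0134 and 1.5e-07), and CAV1, the main protein of caveolae, fell with N-9 by 0.62 (SE 0.12, adjusted p = 1.81e-05). The other 3 that fell with N-9, named after their values were seen, were VCL, BCAR1 and ITGB1BP1.

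Among 19 measured ligands and lateral partners of integrins (20 listed), 1 rose under TNF-α, 3 under Pam3CSK4, 4 under MALP2 and 1 under imiquimod, and under N-9 3 rose and 4 fell. This is 5.26%, 15.8%, 21.1%, 5.26% and 36.8% of the list in that order, against 0.996%, 3.19%, 9.62%, 13.9% and 19.9% of all named genes. The share with imiquimod thus lay below that of all named genes. TNC, the matrix protein tenascin-C, rose by 1.10 with Pam3CSK4 (SE 0.22, adjusted p = 0.000618) and 1.25 with MALP2 (SE 0.22, adjusted p = 1.33e-05). PLAUR, the urokinase receptor, rose by 1.61 in the MALP2, 0.93 in the imiquimod and 2.08 in the N-9 arrays (adjusted p = 1.4e-05, 0.018 and 1.39e-11), and CCN2, a matricellular protein, by 2.55 with N-9 (SE 0.42, adjusted p = 1.07e-06). CD47, a partner of αv integrins, rose with TNF-α and Pam3CSK4 by 0.59 and 0.57 and fell with N-9 by 0.56 (adjusted p = 0.00152, 0.000353 and 7.89e-07). The tetraspanin CD82 rose by 0.68 with Pam3CSK4 (SE 0.14, adjusted p = 0.00118). The other called ligands, named after their values were seen, were SPP1, which rose, and THBS1, EDIL3 and CD82, which fell, with N-9, and CD47 and CD82, which rose with MALP2. No gene of these 5 lists was called with HEC or CMC.

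Across all 103 arrays, which share the treatments and the sets of 3, each member had genes with a like profile, given as Pearson r and with no test. For ITGA2 these were FOXD1 (0.85) and PPARD (0.84), for ITGA5 RELA (0.80) and PPP1R18 (0.78), for ITGAV RCOR1 (0.83) and NAB1 (0.81), and for ITGB6/LINC02478 GJB2 (0.84) and BMPR2 (0.82). For LAMB3 they were NOL4L (0.84) and SEMA4B (0.82), for ITGB4 GRN (0.91) and CTBP1 (0.90), for ITGA6 PRKDC (0.70) and MARCHF7 (0.69), and for ITGB1 ERAP2 (0.60) and BTBD1 (0.57). Between partner chains in the 53 GM arrays r was 0.58 for ITGA5 and ITGB1 and 0.31 for ITGAV and ITGB1. It was 0.26 for ITGAV and ITGB6/LINC02478, 0.24 for ITGA2 and ITGB1 and 0.21 for ITGA6 and ITGB4. LAMB3 encodes a ligand chain, and in the same arrays its r was 0.62 with ITGB4 and 0.18 with ITGA6. ITGB4 and LAMB3 were higher in GM replicates 1 to 9 (means 12.30 and 14.00) than in the other GM arrays (11.07 and 12.66). The part of these replicates in the r of 0.62 was not tested.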

How the data were processed

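The deposited table holds a log2 signal per probeset for each of 105 arrays. According to the submitters' processing notes MAS5 and GCOS 1.3 were used, while the methods describe RMA in GeneSpring. Turned back to a linear scale the deposited signals lie on fixed steps, which is the form of MAS5, and MAS5 signals make the folds of dim probesets noisy. There was no filter on dim probesets. Values were quantile normalized over 103 arrays, leaving out GM replicate 52 and TNF-α replicate 6, and all 54613 probesets other than control probesets were fitted in limma 3.58.1 under R 4.3.3 (with version 1.17.8 of the data.table package) with 1 mean per group and Benjamini-Hochberg adjustment per comparison. A probeset was called at an adjusted p under 0.05. The steps were tested on simulated data.

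Of the probesets 41091 are annotated with 1 gene, 1801 with several and 11721 are not listed. A gene is given by its brightest probeset among those annotated with it alone, except ITGB6, whose probesets all name LINC02478 as well. Named genes are the members, the 2 genes of each list with the largest called change per treatment, and the 2 genes most correlated with each member; others are marked. The members and lists were chosen with earlier results of these data known. Array precision is limited by their number. Same-numbered replicates of the treatments and GM were checked for pairing and fitted without a block, since not every pair was correlated. Alternatives were no quantile normalization, an offset of 16, a filter on dim probesets, all arrays, other controls, the 2 groups alone, a replicate block, sets of 3 as a random block, the ACTB covariate, the methods' analysis of variance and leaving out TNF-α replicates. Promoters come from RefSeq on GRCh38.p14.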

Additional observations from a re-analysis of the deposited data

Results flagged for a closer look

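In the 56 groups of a gene and a treatment that were examined, 2 had an array far from the others of its group. In independent arrays chance gives this in about 1 in 20 groups, and the arrays here lie in sets of 3. For ITGA6 CMC replicate 3 was the lowest array at a log2 level of 12.66, with the next at 13.79 and the highest at 14.45. For ITGB1 HEC replicate 4 was the highest at 14.64, with the next at 14.45 and the lowest at 14.32.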

How the results depend on the processing

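Of 1520 differences of single probesets recomputed, 1389 stayed on their side of the threshold, 81 lost a call, 44 gained one and 6 that were called in at least 1 of the fits changed sign. Among the 1389 a further 94, called in neither fit, changed sign as well, 33 of them against GM replicates 1 to 9 (among these LAMB3 with TNF-α, MALP2, Pam3CSK4 and HEC and ITGB4 204990_s_at with N-9 and HEC), 36 with the replicate block, 9 without quantile normalization, 9 with all 105 arrays and 7 with the ACTB covariate. The called ones were ITGB1 (211945_s_at) with N-9 without quantile normalization (0.24), LAMB3 against GM replicates 1 to 9 with imiquimod (-0.18) and N-9 (-0.23), and LAMB3 with a replicate block, given below. The cause was not tested. Of 102 counts of called member probesets 62 stayed within 1.5 times. With the ACTB covariate 4 were called for imiquimod and 0 for N-9 against imiquimod. With all 105 arrays 1 was called for MALP2, 2 for N-9 against MALP2, 0 for N-9 against imiquimod, 0 for Pam3CSK4, 0 for TNF-α and 4 for imiquimod, and ITGB6/LINC02478 with N-9 was lost (adjusted p = 0.104). With only the 2 groups compared 1 was called for N-9 against imiquimod, 1 for Pam3CSK4 and 0 for TNF-α. Among probesets above the median level 4 were called for MALP2 and 4 for Pam3CSK4. Treating sets of 3 as a random block left 1 for MALP2, 3 for N-9 against MALP2, 1 for N-9 against imiquimod, 1 for Pam3CSK4 and 0 for TNF-α. By the methods' analysis of variance with a fold over 2 they were 1 for MALP2, 4 for N-9, 3 for N-9 against MALP2, 1 for N-9 against imiquimod, 0 for TNF-α and 4 for imiquimod. Against GM replicates 1 to 9 they were 1 for CMC, 6 for MALP2, 4 for N-9, 5 for Pam3CSK4 and 3 for TNF-α. Leaving out each TNF-α replicate in turn gave 0 to 0 for TNF-α. For the dim probesets of ITGB1 and ITGB4 signal over background limits what can be seen.

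With a replicate block, for which GM replicates 1 to 9 are the controls, the counts were 1 for CMC, 6 for MALP2, 4 for N-9, 5 for N-9 against imiquimod, 9 for Pam3CSK4 and 3 for TNF-α. LAMB3 turned to -0.74 with Pam3CSK4 and was called lower (adjusted p = 0.014). With imiquimod and N-9 it turned to -0.36 and -0.23 without a call (adjusted p = 0.232 and 0.509). The calls of ITGAV (-0.13, adjusted p = 0.525) and ITGA2 (0.57, adjusted p = 0.0688) with N-9 were not made there. Over all probesets the deviations of same-numbered treated and GM arrays correlated at over 0.1 in 6 of 9 pairs for N-9 and for HEC (up to 0.27 and 0.31) and in 0 pairs for the other treatments. The GM array with the same number was the best correlated one for 3 of 9 N-9, 2 of 9 HEC and 1 of 6 imiquimod arrays and for 0 of the others. The labels do not say that a number marks a shared culture or day, so the arrays were taken to share only a number.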
